A study of Mus musculus with 8 samples.

Results

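The miRNAs of the vessel wall were examined as a group of 6 assays, miR-126-3p and miR-126-5p of the endothelium, miR-143 and miR-145 of smooth muscle cells and pericytes, and miR-199a-3p and miR-214 of fibroblasts and mesenchyme. They were chosen by name for the cells that express them, and the rule used no measured value, although earlier results of these data were known. All 6, listed as mmu-miR-126-3p, mmu-miR-126-5p, mmu-miR-143, mmu-miR-145, mmu-miR-199a-3p and mmu-miR-214, were among the 375 miRNA assays of the TaqMan array card A, a plate of quantitative PCR assays. Total RNA came from the ventral part of the lumbar spinal cord at 4 months of age. The 4 wild type mice were of the FVB strain and carried no transgene. The 4 MLC/SOD1[G93A] mice, written MLC/SOD1G93A from here on, carry a mutant SOD1 gene driven by the muscle specific promoter of myosin light chain, so the transgene is directed to skeletal muscle and not to the cord that was sampled. The comparison asked whether vascular miRNAs of the cord differ when the mutant protein is made in muscle.

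miR-126 is made from an intron of Egfl7, a gene of endothelial cells, and is known for its part in vessel integrity and in the response to VEGF, with both arms of its hairpin accumulating as mature miRNAs. miR-143 and miR-145 are made together from 1 transcript and maintain the contractile state of smooth muscle, and pericytes express them as well. miR-199a and miR-214 are made from a long RNA, Dnm3os, that lies antisense to Dnm3, and they are known from mesenchyme and fibroblasts. In spinal cord tissue these cells form the vessels, the perivascular space and the meninges.

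The mature sequences are shown because they define what an assay of this kind detects, and capitals mark the seed (bases 2 to 8), which pairs with target mRNAs. The sequences were taken from RefSeq (GRCm38.p6), 3 of the 6 members being matched by name, and are written 5′ to 3′.
miR-126-3p: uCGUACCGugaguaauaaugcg
miR-199a-3p: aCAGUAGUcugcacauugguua
miR-214: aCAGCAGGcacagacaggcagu
miR-126-3p lies at chr2:26591402-26591423 on the plus strand, in the hairpin Mir126a, which is within Egfl7 (chr2:26581083-26592682). In the table of mature miRNAs its seed was held by no other entry. The hairpin, at chr2:26591357-26591429, is given with the 3p arm in capitals, because the 5p arm measured by the other assay comes from the same stem.
Mir126a: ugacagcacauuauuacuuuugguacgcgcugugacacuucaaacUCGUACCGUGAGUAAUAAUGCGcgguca
miR-199a-3p is made from Mir199a-2 (chr1:162217883-162217904, plus strand) and from Mir199a-1 (chr9:21496498-21496519, minus strand, within Dnm2). All 22 bases are the same in miR-199b-3p, so a signal for miR-199a-3p cannot be assigned to 1 of these 3 genes. miR-214 lies at chr1:162223438-162223459 on the plus strand. Mir214 starts 5445 bases after the end of Mir199a-2 and both are within Dnm3os (chr1:162217623-162225550), yet the seeds of miR-199a-3p and miR-214 share 5 of 7 positions and are not the same. The seed of miR-214 is shared with miR-761.

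The readout of an assay is its threshold cycle (Ct), reached sooner when more miRNA is present, and 1 cycle less corresponds to about 2 times as much. Undetermined wells and those with a Ct over 35 counted as missing. Log2 expression was computed in each sample as the Ct of a reference minus that of the miRNA, with as reference either the mean of the 4 U6 wells or the global mean, an average of Ct over the 190 miRNAs that every sample measured. Between 239 and 256 of the 375 miRNAs were measured per sample, and 227 were measured in at least 3 samples of each group and were tested with limma. Wild type samples are numbered 1 to 4 in the labels and in the data. Columns 5a to 8a hold MLC/SOD1G93A samples under numbers absent from the labels, so they are known by group only. Wild type 1 and sample 7a stood apart from the other samples in their reference. The mean U6 Ct was 11.6 and 11.8 cycles below the global mean in these samples, against 9.67 to 10.4 cycles in the other 6, and the mean log2 expression of the 5 tested members relative to U6 was -9.84 and -9.74, against -8.86 to -7.20 in the others. The 4 U6 wells of samples 7a and 8a also spread over 2.14 and 1.97 cycles, against at most 1.05 cycles elsewhere. The number of cards limits the precision, and no other depth exists for these data.

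The vascular miRNAs did not separate the groups, and neither did most of the 227 tested miRNAs. Of the 6 members, 5 passed the filter, and miR-214 did not because it was undetermined in 2 MLC/SOD1G93A samples. With limma and Benjamini-Hochberg adjustment over all 227 miRNAs, 0 of the 5 members had an adjusted p under 0.05 relative to U6, where 0% of the 227 did, and 0 of 5 relative to the global mean, where again 0% did. At an unadjusted p under 0.05 the number was also 0 of 5 with either reference. Relative to U6, 2.2% of all 227 passed it with a lower and 0.441% with a higher level in MLC/SOD1G93A. Relative to the global mean these shares were 5.73% and 3.52%. No tested member had groups that did not overlap, against 1.76% of all tested miRNAs with the U6 reference and 4.41% with the global mean. Relative to U6 all 5 changes were negative, as were 77.5% of all 227, and the median of the members was -0.56 on the log2 scale against -0.31 for all tested miRNAs. Relative to the global mean 4 of 5 were negative, against 46.3% of all, with a median of -0.21 against 0.04. Fewer vascular cells and less of a miRNA per cell cannot be told apart in tissue RNA.

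**Figure D1:**
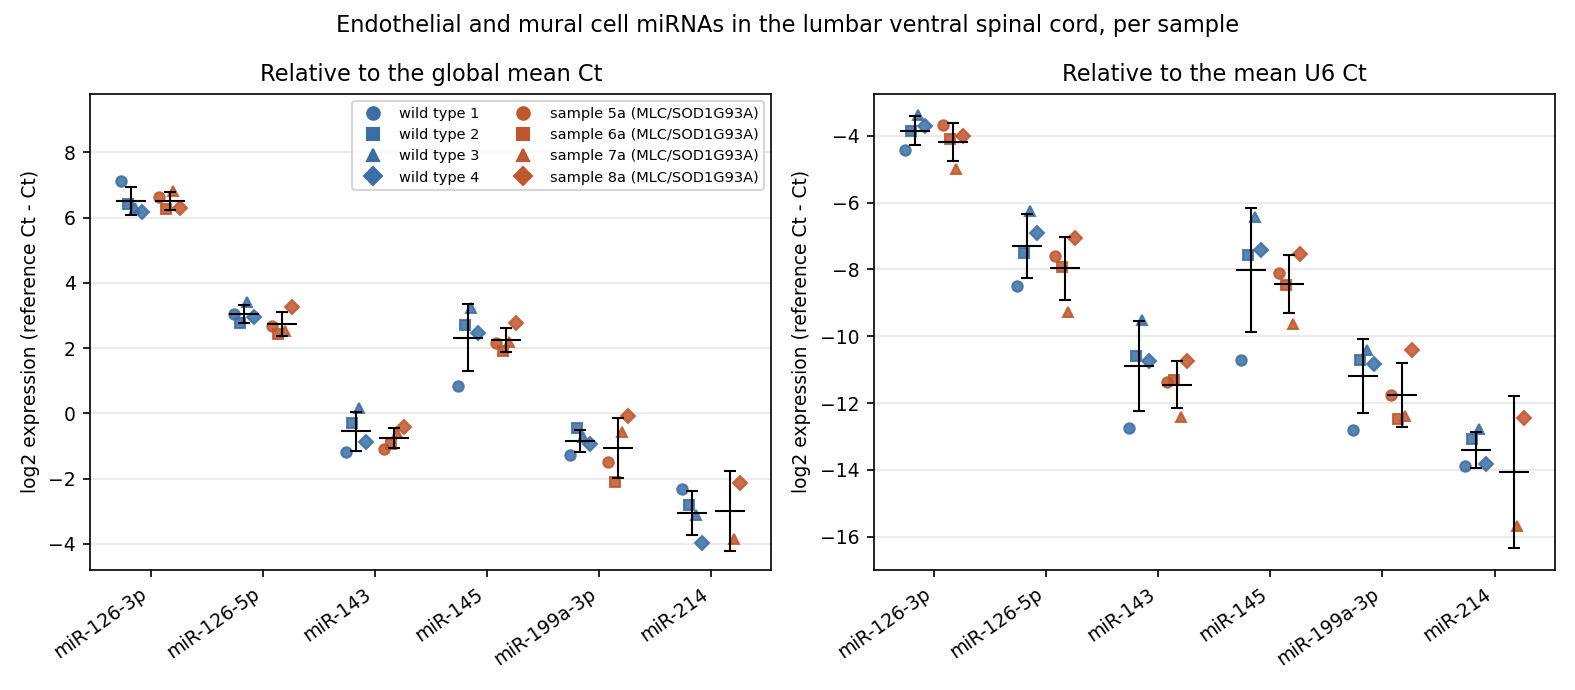
Log2 expression of the 6 members in every sample, relative to the global mean Ct (left) and to the mean U6 Ct (right). Points are samples and black bars give the mean ± SD of each group. miR-214 has 2 MLC/SOD1G93A points because it was undetermined in samples 5a and 6a. The groups overlap for every member in both panels, and wild type 1 is the lowest sample for miR-145.

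miR-126-3p, the guide strand that restrains inhibitors of VEGF signalling in endothelium, gave one of the strongest signals on the card. Its mean Ct of 22.0 was the 2nd lowest of the 227 tested miRNAs. The Ct was 21.88, 22.06, 21.82 and 21.85 in wild type 1 to 4 and 22.16, 22.61, 21.87 and 21.97 in samples 5a to 8a. It therefore varied by only 0.79 cycles over all samples, although the groups' global means were 28.4 ± 0.45 (SD, n = 4) and 28.7 ± 0.26 (SD, n = 4). Relative to the global mean the log2 expression was 7.12, 6.42, 6.29 and 6.17 in wild type and 6.62, 6.26, 6.82 and 6.30 in MLC/SOD1G93A samples. The highest value was that of wild type 1, and the other values of both groups were interleaved. The log2 change was 0.00 (SE 0.27, 95% interval -0.61 to 0.62), with an adjusted p of 0.998 in limma. Relative to U6 it was -0.35 (SE 0.57, 95% interval -1.54 to 0.85, limma adjusted p = 0.975), with p = 0.429 in the exact permutation test (two-sided).

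miR-126-5p, the passenger strand of the same hairpin, which is also active in endothelial cells, had a mean Ct of 25.6, the 33rd lowest. Relative to the global mean its log2 expression was 3.05, 2.76, 3.41 and 2.96 in wild type and 2.67, 2.43, 2.53 and 3.25 in MLC/SOD1G93A samples. Samples 5a, 6a and 7a lay below all wild type samples, while sample 8a lay above 3 of them. The log2 change was -0.32 (SE 0.26, 95% interval -0.91 to 0.26, limma adjusted p = 0.718), the lowest among the members. Its exact permutation p was 0.200. Relative to U6 the change was -0.67 (SE 0.65, limma adjusted p = 0.975).

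The mural pair is expressed by smooth muscle cells and pericytes. miR-145, which maintains the contractile state, had a mean Ct of 26.2 and miR-143, its partner, a mean Ct of 29.2. Relative to the global mean, the log2 expression of miR-145 was 0.84, 2.72, 3.23 and 2.47 in wild type 1 to 4 and 2.17, 1.90, 2.19 and 2.77 in samples 5a to 8a. Wild type 1 was the lowest of all samples, and the other 3 wild type values ran from within the MLC/SOD1G93A range to above it. The log2 change was -0.06 (SE 0.47, limma adjusted p = 0.983). Without wild type 1 it was -0.55. For miR-143 the values were -1.19, -0.31, 0.16 and -0.88 in wild type and -1.10, -0.94, -0.61 and -0.42 in MLC/SOD1G93A samples. Wild type 1 was again the lowest and wild type 3 again the highest, as for miR-145. The log2 change of miR-143 was -0.21 (SE 0.33, limma adjusted p = 0.955) and -0.43 without wild type 1. Relative to U6 the changes were -0.56 (SE 0.69) for miR-143 and -0.41 (SE 0.79) for miR-145, both with a limma adjusted p of 0.975.

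miR-199a-3p and miR-214 stand for fibroblasts and mesenchyme, where both are known from fibrotic tissue. The log2 expression of miR-199a-3p relative to the global mean was -1.27, -0.44, -0.74 and -0.95 in wild type and -1.49, -2.12, -0.58 and -0.09 in MLC/SOD1G93A samples. Samples 5a and 6a were the lowest of all samples and sample 8a was the highest, so the MLC/SOD1G93A values enclosed those of wild type. The log2 change was -0.22 (SE 0.43, limma adjusted p = 0.964) relative to the global mean and -0.57 (SE 0.68, limma adjusted p = 0.975) relative to U6.
miR-214 had a Ct of 31.33, 31.29, 31.23 and 31.98 in wild type, was undetermined in samples 5a and 6a, and reached its Ct at 32.56 cycles in sample 7a and at 30.41 in sample 8a. The 2 samples without a value are the 2 in which miR-199a-3p was lowest. At the Ct limit of 35, their log2 expression relative to the global mean would lie below -6.22 in sample 5a and -6.13 in sample 6a, whereas the 6 measured values lay between -3.96 (wild type 4) and -2.14 (sample 8a). miR-214 was thus measured in 4 of 4 wild type and in 2 of 4 MLC/SOD1G93A samples (two-sided Fisher's exact test, p = 0.429). With 4 samples per group this split always gives that p, which is above the threshold. The test therefore cannot decide whether detection differed between the groups. Of the 375 assays, 5 (1.33%) were measured in all wild type samples and in at most 2 MLC/SOD1G93A samples, and 2 (0.533%) the other way round. Whether the undetermined wells hold little miR-214 or failed was not tested.

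**Figure D2:**
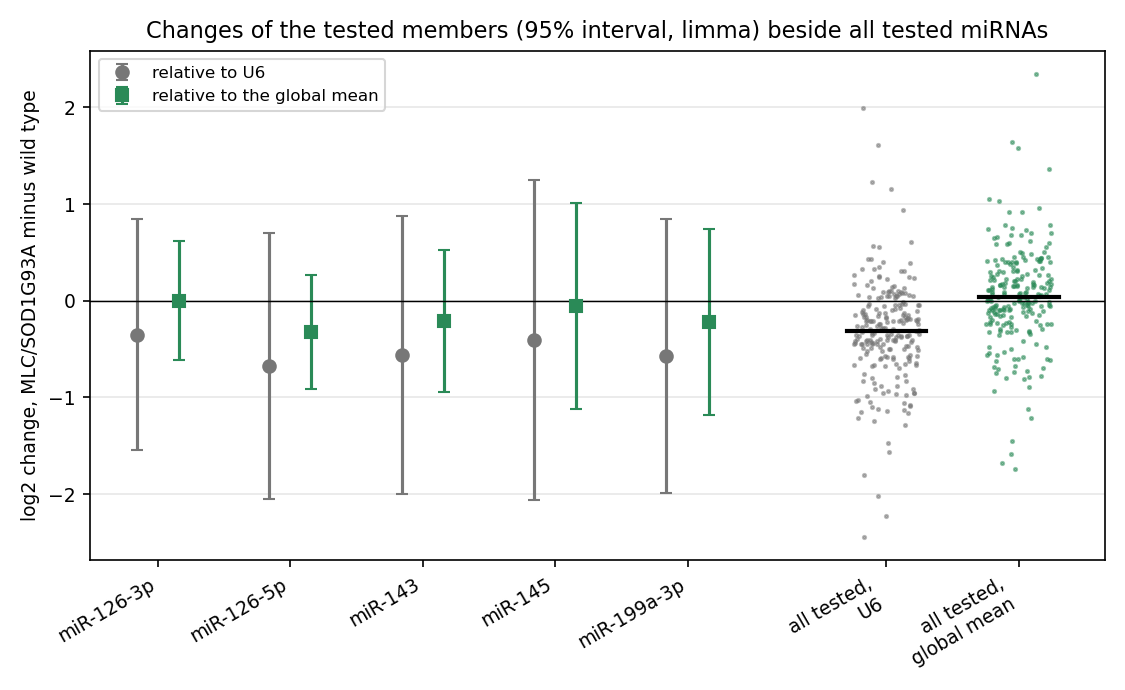
Log2 change (MLC/SOD1G93A minus wild type) of the 5 tested members, with the 95% interval from limma, relative to U6 (grey circles) and to the global mean (green squares), beside the changes of all 227 tested miRNAs, whose median is the black line. All 10 intervals cross 0, and the intervals relative to U6 are wider than those relative to the global mean.

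A difference of Ct inside a sample needs no reference, so the endothelial and the mural and fibroblast members were set against each other in each sample. Such a difference also holds the difference in efficiency between assays, and it can be compared between samples but does not give a ratio of molecules. The mean Ct of the miR-126 arms lay below that of miR-143, miR-145, miR-199a-3p and miR-214 by 6.07, 4.80, 4.97 and 5.40 cycles in wild type 1 to 4, and by 5.39 and 4.75 cycles in samples 7a and 8a. Samples 5a and 6a have no value, since miR-214 was undetermined. Wild type had a mean of 5.31 ± 0.57 (SD, n = 4) and MLC/SOD1G93A one of 5.07 ± 0.46 (SD, n = 2). The difference was -0.24 (SE 0.43), and the groups overlapped among the samples with a value. If miR-214 was low in samples 5a and 6a, and its wells had not failed, leaving them out lowers the MLC/SOD1G93A mean. The sign of -0.24 therefore cannot be read for the whole group.
With miR-214 left out, which was chosen after its undetermined wells were seen, all samples have a value. The miR-126 arms then exceeded miR-143, miR-145 and miR-199a-3p by 5.62, 3.93, 3.97 and 4.35 cycles in wild type, and by 4.79, 4.73, 4.34 and 4.02 cycles in MLC/SOD1G93A samples. The groups' means were 4.47 ± 0.79 (SD, n = 4) and 4.47 ± 0.36 (SD, n = 4), a difference of 0.00 (SE 0.44). Wild type 1 was the highest sample, and without it the wild type mean was 4.08 ± 0.23 (SD, n = 3) and the difference 0.39 (SE 0.22), with overlapping groups.

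The groups also overlapped with the mural or the fibroblast side taken alone. Over miR-143 and miR-145 the miR-126 arms led by 3.89 ± 0.95 cycles (SD, n = 4) in wild type, and MLC/SOD1G93A samples gave 3.87 ± 0.21 (SD, n = 4), a difference of -0.03 (SE 0.48) that became 0.43 (SE 0.21) without wild type 1. Over miR-199a-3p alone the difference between the groups was 0.06 (SE 0.46), and 0.30 (SE 0.41) without wild type 1. The mural pair against miR-199a-3p differed between the groups by 0.09 cycles (SE 0.42), which turned to -0.13 (SE 0.40) without wild type 1. In samples 5a and 6a the pair exceeded miR-199a-3p by 2.02 and 2.60 cycles, and in samples 7a and 8a by 1.37 and 1.26.

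**Figure D3:**
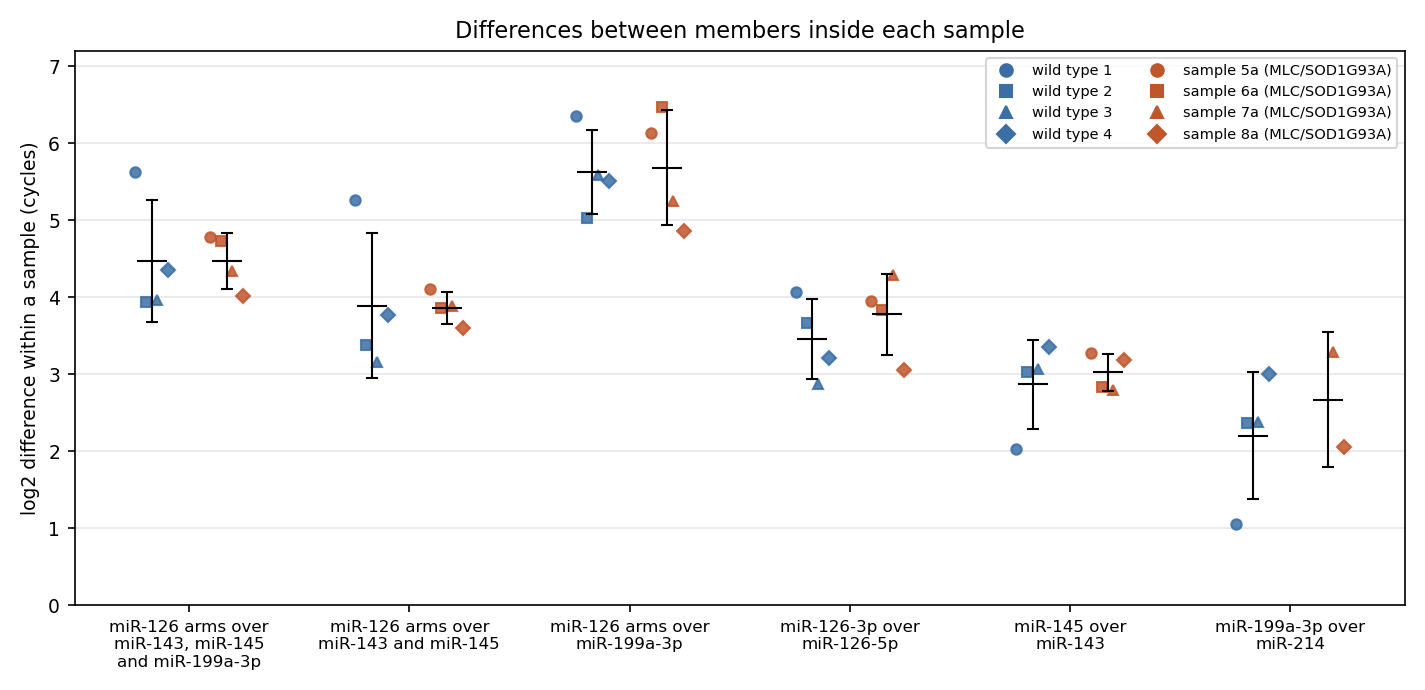
Differences of Ct between members inside each sample, in cycles, with the mean ± SD of each group as black bars. A higher point means more signal of the miRNAs named first. Wild type 1 is the highest sample where the miR-126 arms are set against miR-143 and miR-145, with or without miR-199a-3p, and the lowest for miR-145 over miR-143 and for miR-199a-3p over miR-214.

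Members that share a hairpin or a transcript were compared in the same way, although miR-199a-3p has other sources than the transcript it shares with miR-214. miR-126-3p exceeded miR-126-5p by 4.07, 3.66, 2.88 and 3.21 cycles in wild type and by 3.95, 3.83, 4.29 and 3.05 cycles in MLC/SOD1G93A samples, so the 2 arms of the hairpin did not keep a fixed distance. The means were 3.46 ± 0.52 (SD, n = 4) and 3.78 ± 0.52 (SD, n = 4), a difference of 0.33 (SE 0.37). miR-145 exceeded miR-143 by 2.03, 3.03, 3.07 and 3.35 cycles in wild type and by 3.27, 2.84, 2.80 and 3.19 cycles in MLC/SOD1G93A samples. Apart from wild type 1, the pair kept within 2.80 to 3.35 cycles of each other. miR-199a-3p exceeded miR-214 by 1.06, 2.37, 2.38 and 3.01 cycles in wild type and by 3.29 and 2.05 cycles in samples 7a and 8a. This distance varied over more cycles than that of the mural pair.

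The members also differed in how steady they were. The SD within groups relative to the global mean was 0.32 for miR-126-5p, 0.36 for miR-126-3p, 0.48 for miR-143, 0.69 for miR-199a-3p and 0.77 for miR-145, against a median of 0.45 for all tested miRNAs. The endothelial arms ranked 59th and 70th from the steadiest of 227, and miR-145 ranked 191st. Relative to U6 the order changed, with miR-126-3p at an SD of 0.51, the 20th steadiest, and miR-145 at 1.45, the 217th. With that reference miR-126-5p had an SD of 0.95 and ranked 124th, against a median of 0.91 for all tested miRNAs. miR-199a-3p and miR-143 ranked 149th and 164th. The spread of miR-145 relative to the global mean rested on wild type 1, since the SD in wild type was 1.03 with it and 0.39 (n = 3) without it, against 0.37 in MLC/SOD1G93A samples. For miR-199a-3p the SD was 0.91 in MLC/SOD1G93A and 0.35 in wild type samples.

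**Figure D4:**
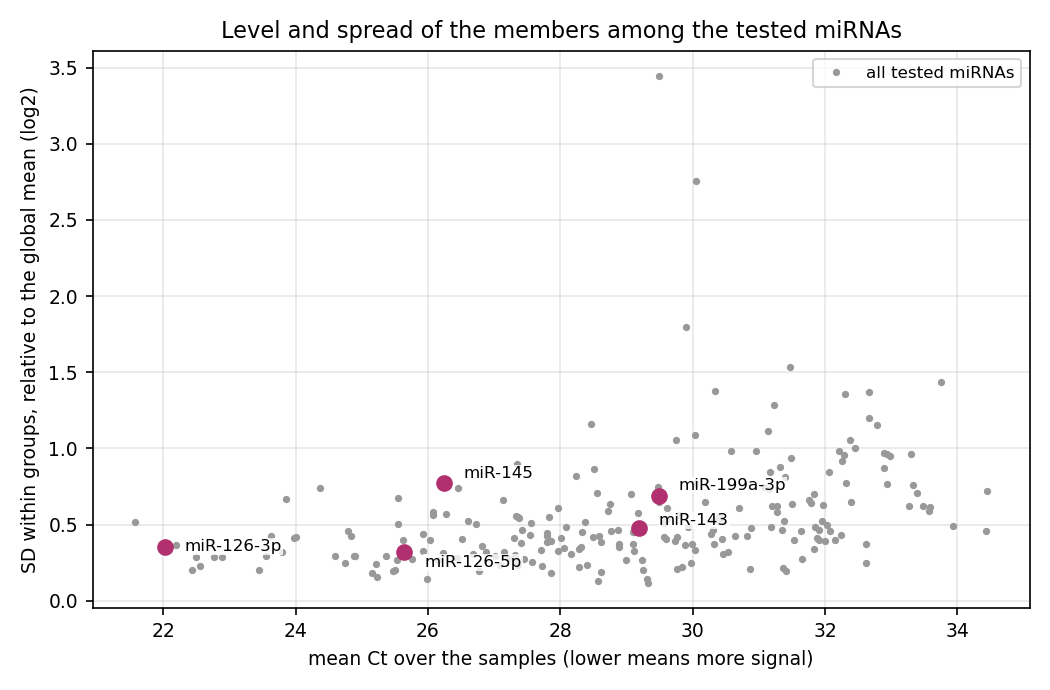
Mean Ct over the samples against the SD within groups relative to the global mean (log2) for the 227 tested miRNAs (grey), with the 5 tested members in colour. miR-126-3p lies at the abundant end, and miR-145 has an SD of 0.77 at a mean Ct of 26.2.

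The patterns of the members over the 8 samples were compared relative to the global mean. miR-143 and miR-145 had the highest Pearson r of the 10 pairs, 0.84, with a Spearman rho of 0.93, and r was 0.76 without wild type 1 and wild type 3, which are farthest from the median, and 0.89 without wild type 1 alone. miR-199a-3p had an r of 0.63 with miR-143 and of 0.54 with miR-145, which became 0.83 and 0.87 without the same 2 samples. miR-126-5p had an r of 0.52 with miR-143, 0.36 with miR-145 and 0.53 with miR-199a-3p. Without wild type 1 these were 0.71, 0.91 and 0.59, so its r with miR-145 was then above that of the mural pair. Without wild type 3 and sample 6a, its farthest samples, they were 0.02, -0.06 and 0.28. The arms of miR-126 had an r of -0.16 with each other. miR-126-3p had an r of -0.75 with miR-145, which became -0.19 without wild type 1 and sample 7a, of -0.45 with miR-143 and of -0.08 with miR-199a-3p. The last had a rho of 0.10 and an r of 0.10 without wild type 1. All 10 pairs share the reference and the 8 samples, so these values are descriptions.
The miRNAs most like each member were sought among the other 189 measured in all samples. They were miR-146b (r = 0.94) and miR-672 (0.90) for miR-126-3p, and miR-223 (0.88) and miR-130a (0.87) for miR-126-5p. For miR-143 they were miR-145 (0.84) and miR-152 (0.80), for miR-145 they were let-7c (0.95) and miR-652 (0.94), and for miR-199a-3p they were miR-20b (0.79) and miR-674 (0.75). Without the 2 samples farthest from the member's median, r was 0.71 to 0.87 for both miRNAs closest to each arm of miR-126, for miR-145 with miR-143 and for let-7c with miR-145. It fell to 0.53 for miR-152, 0.62 for miR-652, 0.59 for miR-20b and 0.46 for miR-674. miR-145 was the closest of all to miR-143, whereas miR-143 was not among the 2 closest to miR-145. Neither arm of miR-126 was among the 2 closest to the other arm. Every r of a closest miRNA is among the 2 highest of 189 values over 8 samples, so its size rests in part on that choice. The median r of a member with all 189 was -0.11 to -0.01.

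Markers of blood cells were read beside these values, since vessels hold blood. miR-223, a miRNA of myeloid cells, was 1.99, 1.50, 3.17 and 1.81 relative to the global mean in wild type and 0.40, 0.10, 0.71 and 1.45 in MLC/SOD1G93A samples. With this reference its groups did not overlap, as for 4.41% of all tested miRNAs. The log2 change was -1.45 (SE 0.42) and was not past the threshold (limma adjusted p = 0.427). Relative to U6 its groups overlapped, with a log2 change of -1.80 (SE 0.70, limma adjusted p = 0.963). Relative to the global mean miR-223 was highest in wild type 3 and lowest in sample 6a, as was miR-126-5p, to whose pattern it was closest. Of the 5 tested leukocyte miRNAs, 3 had a negative change relative to the global mean, and their mean log2 expression was 0.69 to 1.32 in wild type and 0.50 to 0.83 in MLC/SOD1G93A samples. Both measured red cell miRNAs, miR-451 and miR-486, had a mean of -0.13 to 1.88 in wild type and -0.25 to 0.66 in MLC/SOD1G93A samples. They went in opposite directions, with a log2 change of -1.12 (SE 0.62) for miR-451 and 0.09 (SE 0.37) for miR-486. The part of blood in the values of the members was not tested. The 3 neuronal and 3 oligodendrocyte miRNAs looked for in this cord tissue were measured in all samples. In the lists for oligodendrocytes, neurons and skeletal muscle, 0 of 9 tested miRNAs had an adjusted p under 0.05 in limma with either reference. Of all 227 tested miRNAs, 0% did. The highest change over all the cell type lists was that of miR-138, one of the oligodendrocyte miRNAs, at 0.44 (SE 0.35) relative to the global mean. Of the others on that list, miR-338-3p had a log2 change of -0.80 (SE 0.35, limma adjusted p = 0.515) and miR-219 one of -0.11 (SE 0.25). The oligodendrocyte miRNAs therefore had changes in both directions.

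Other vascular miRNAs of the card did not separate the groups either. The list, written from background knowledge, holds 22 miRNAs, of which 18 were on the card and 15 were tested. Of these 15, 0 had an adjusted p under 0.05 in limma with either reference, as did 0% of all 227. At an unadjusted p under 0.05 the number was also 0 of 15 with either reference. Of all 227, 2.2% (lower) and 0.441% (higher) passed that unadjusted threshold relative to U6, and 5.73% and 3.52% relative to the global mean. Changes were negative for 12 relative to U6 and for 10 relative to the global mean, with a median of -0.40 and -0.05, against -0.31 and 0.04 for all tested miRNAs. The lowest change relative to the global mean was that of miR-130a, which acts in angiogenesis, at -0.75 (SE 0.41, limma adjusted p = 0.627). Its log2 expression was -3.18, -3.05, -2.39 and -2.91 in wild type and -4.26, -3.72, -4.13 and -2.43 in MLC/SOD1G93A samples. Samples 5a, 6a and 7a were below all wild type samples and sample 8a was above 3 of them. The same held for miR-126-5p, for which miR-130a was among the 2 closest miRNAs. The highest was that of miR-24, at 0.42 (SE 0.25, limma adjusted p = 0.637). miR-199a-5p, the other arm of the miR-199a hairpins, was measured in wild type 4 only, at a Ct of 34.1. miR-503 was measured in 3 wild type samples and in sample 8a, at a Ct of 31.6 to 34.0, and was not tested.

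**Figure D5:**
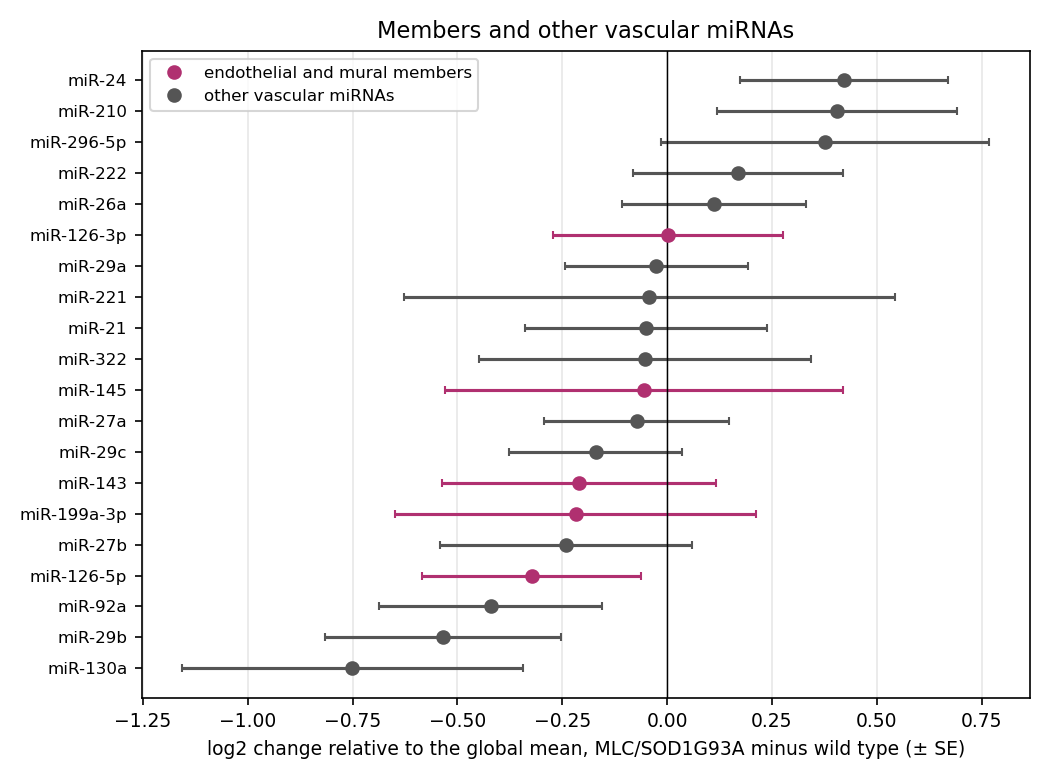
Log2 change relative to the global mean (MLC/SOD1G93A minus wild type), with its SE from limma, for the 5 tested members (coloured) and the 15 other tested vascular miRNAs (grey). The members lie between -0.32 for miR-126-5p and 0.00 for miR-126-3p, inside the range from -0.75 for miR-130a to 0.42 for miR-24.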

How the data were processed

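miRNA was measured in 8 samples, each on 1 card. Ct values were given by the instrument software of the authors, and their deposited table holds Ct, in cycles, without normalization. The second table of the authors is on the log2 scale (Ct minus the mean Ct of the 4 U6 wells) and matched the Ct values within 0.01. It was used as an alternative. Another deposited table holds the authors' own fold changes between the groups and was not used.

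From the Ct, log2 expression was computed relative to the mean U6 Ct and to the global mean. The U6 fit was the main one, after the methods of the study, which also name the global mean. With a Ct over 35 set to missing, miRNAs needed a value from 3 or more of the 4 samples per group to enter the fit, made in limma 3.58.1 (R 4.3.3, lmFit and eBayes without covariates), with Benjamini-Hochberg adjustment over all of them and a threshold of 0.05. The p-values measure the spread between these samples, for which the labels name no separate source. Exact permutation tests of single members were two-sided, over 70 regroupings, and their smallest p is 0.0286. Other steps used Python 3.11.15 and scipy 1.17.1. The fit was tested on simulated data with 1 common SD, changes larger than those of the members and no shared error of the reference. It therefore does not show how well changes of the members' size would be found in these data. Contrasts within samples and scores over members were given no p-value.

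The members and lists were chosen with earlier results of these data known. The text names the members, list miRNAs of the same hairpins or past an unadjusted p of 0.05 or with no overlap between groups, the lowest and highest of the lists, and the 2 miRNAs most like each member. Alternatives were other references, the log2 table of the authors, Ct limits of 32 and 40, a filter for all samples, exact tests for each miRNA, and the fit without each sample in turn. Card B and the mRNA array are not analysed here.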

Additional observations from a re-analysis of the deposited data

How the results depend on the processing

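Over 165 alternative values of the 5 tested members, 0 had an adjusted p under 0.05 (limma or, per miRNA, exact permutation and exact Mann-Whitney tests). The smallest was 0.245, in limma, and 22 changed direction. The exact tests could not pass after adjustment. Their smallest p is 0.0286, and only 1.76% of the 227 had non-overlapping groups relative to U6. The Ct limits and the filter for all samples left the members' changes relative to U6 as they were. The number of members called stayed at 0 in all 13 alternatives, among them the unadjusted threshold and Ct limits of 32 and 40. The direction depended on the reference. Relative to Y1 all changes were positive, at 0.59 for miR-126-3p, 0.27 for miR-126-5p, 0.38 for miR-143, 0.53 for miR-145 and 0.37 for miR-199a-3p, where the median of all tested miRNAs was 0.64. Relative to snoRNA135 miR-126-3p was 0.14 and miR-145 was 0.085 (median of all 0.18), and relative to the global mean miR-126-3p was 0.0022. Relative to U87 the changes were -2.94 to -2.62 (median of all -2.58), and the Ct of U87 had an SD of 5.17 in MLC/SOD1G93A. The cause was not tested.

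miR-126-3p relative to the global mean was -0.0025 with the median Ct, -0.0022 with the members left out of the mean and -0.008 at a Ct limit of 32. Leaving out 1 sample gave -0.11 to 0.20 for miR-126-3p, -0.43 to 0.027 for miR-143, -0.55 to 0.25 for miR-145, -0.58 to 0.13 for miR-199a-3p and -0.53 to -0.20 for miR-126-5p relative to the global mean. Relative to U6 it gave -0.55 to -0.08 for miR-126-3p, -1.08 to -0.24 for miR-126-5p, -1.18 to -0.10 for miR-143, -1.30 to 0.12 for miR-145 and -1.11 to -0.31 for miR-199a-3p, each lowest without wild type 1. The contrast of miR-126 and the other 4 members, -0.24, was -0.35 to -0.03 for the choices planned (either arm, either side, the median), 0.00 with miR-214 left out and 0.16 for miR-126-3p against those 3 members (both chosen after seeing the data), so its direction was not constant. Without 1 sample it was -0.56 to 0.08. With 3 members it was -0.18 to 0.39 without 1 sample, the highest without wild type 1. No paired analysis was made, since the labels describe no pairs of wild type and MLC/SOD1G93A mice. With 4 cards per group, the standard error relative to U6 was larger than the change for every tested member except miR-126-5p.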
